A study of Mus musculus with 6 samples.

Results

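The cytosolic ribosome is built from 80 standard proteins. This account describes the mouse genes that encode them, with their tissue-restricted relatives, in quadriceps muscle. Mice in which the gene of the transcription factor Klf15 was targeted in muscle are compared with controls. Members were the rows whose symbol has the form Rpl or Rps followed by a number, or is Rplp0, Rplp1 or Rplp2, leaving out rows marked as pseudogenes with -ps and the Rps6k kinases, with a mean of at least 1 FPKM over the 6 libraries. FPKM is a count of fragments scaled by transcript length and by library size, so levels can be compared between genes. Of 23314 rows, 88 met the rule on symbols and 78 of these passed the minimum. The 78 were 26 proteins of the small subunit, 37 of the large subunit, 3 of the stalk, 11 paralogs or gene copies, and Rps19bp1, which encodes a protein that binds Rps19 and is no subunit. RNA sequencing was done on 3 libraries of MyoCre (Myogenin-Cre/+) and 3 of K15SKO (Myogenin-Cre/+;K15F/F), all from quadriceps at 2 months of age. Both groups carry the Cre, and K15SKO carries in addition floxed Klf15 alleles. The promoter of myogenin drives the Cre in differentiating skeletal muscle cells, so other cells of the tissue keep the gene. The design text counts more mice than the 3 libraries per group analysed here, and nothing says how each library relates to a mouse, so a p-value sets the difference against the spread between libraries, which may be technical.

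Ribosomal proteins assemble with ribosomal RNA in the nucleolus into a small subunit, which reads the messenger RNA, and a large subunit, which joins amino acids. Their mRNAs begin with a run of pyrimidines, the terminal oligopyrimidine tract, through which growth signals acting by mTOR control their translation together. Striated muscle makes a paralog of its own, Rpl3l, which stands in for the general protein Rpl3 in mature fibres. Ribosomal protein genes have also left many processed pseudogenes in the mouse genome, intronless copies whose sequence can be the same as that of the mRNA.

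The sequences that decide how these genes can be measured are shown first. Rpl3 (GRCm38 chr15:80077791-80091868, minus strand), its processed pseudogene Rpl3-ps1 (chrX:13202571-13203780, plus strand) and Rpl3l (chr17:24727820-24736143, plus strand) are given by the same 90 bases of coding exons, bases 7 to 96 of the coding sequence, from GENCODE transcripts. Capitals mark bases that differ from Rpl3.
Rpl3: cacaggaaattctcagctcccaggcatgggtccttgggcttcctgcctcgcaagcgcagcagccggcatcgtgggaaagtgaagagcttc
Rpl3-ps1: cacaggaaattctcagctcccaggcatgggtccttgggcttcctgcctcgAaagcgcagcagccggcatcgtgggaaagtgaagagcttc
Rpl3l: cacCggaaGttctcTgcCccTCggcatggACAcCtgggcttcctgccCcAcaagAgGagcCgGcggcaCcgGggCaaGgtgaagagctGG
Rpl3l differs from Rpl3 at 22 of these bases and the pseudogene at 1. Over the whole coding sequence of 1209 bases, Rpl3-ps1 was identical to Rpl3 at 1207, whereas Rpl3l was identical at 891 (73.7%). A read from Rpl3 can therefore be matched to the pseudogene almost anywhere, but seldom to Rpl3l. The other extreme is Rps6, the small-subunit protein phosphorylated by S6 kinase (chr4:86854660-86857412, minus strand), whose pseudogene Rps6-ps4 (chr2:75191073-75191822, minus strand) matched all 747 coding bases. Their first 60 coding bases show the identity, with no capitals because no base differs.
Rps6: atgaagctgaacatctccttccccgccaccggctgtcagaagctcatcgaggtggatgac
Rps6-ps4: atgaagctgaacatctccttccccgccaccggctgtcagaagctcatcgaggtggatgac

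Some properties of the libraries bear on every value that follows. Klf15 itself, the targeted gene, had levels in MyoCre of 35.2, 28.4 and 30.5 FPKM (libraries 1 to 3 in order, here and below). In K15SKO the levels were 2.22, 21.7 and 5.32 FPKM, so the library labelled K15SKO 2 was nearest to MyoCre. That library also had the highest sum of liver markers, given below. Whether its Klf15 RNA came from muscle was not tested. The muscle fibre markers with a row numbered 5 and summed to 5736 to 7010 FPKM in MyoCre and to 11938, 12213 and 25176 in K15SKO. A large part of the K15SKO sums was Pvalb, which was at 0 FPKM in MyoCre and at 5041, 6810 and 15958 in K15SKO. The reason for its values of 0 was not tested. Ckm, Acta1 and Myh4, also planned as fibre markers, were not among those with a row. Des was at 1005 to 1191 FPKM in MyoCre and 1437 to 2376 in K15SKO. Actn3 was at 2925 to 3947 and 1404 to 3553, Ttn at 89.6 to 156 and 77.9 to 159, and Mb at 1716.5 to 2017 and 1245 to 4070. Markers of other cells differed among the K15SKO libraries. Summed FPKM of 12 macrophage markers was 46.3 to 55.5 in MyoCre and 383, 215 and 42.8 in K15SKO 1 to 3. The 8 markers of regenerating or developing muscle summed to 14.4 to 24.5 in MyoCre and to 88.4, 72.2 and 21.6 in K15SKO, and the 6 fibroblast markers to 176 to 200 and to 331, 234 and 161. The 9 markers of proliferating cells summed to 15.3 to 16.6 and to 29.1, 23.4 and 13.6. The 13 liver markers summed to 20.7 to 39.3 in MyoCre and to 84.1, 6003 and 19.2 in K15SKO, and the 7 adipocyte markers to 409 to 1058 and to 179, 117 and 234. Endothelial markers (4) gave 30.2 to 37.0 and 20.8 to 44.4, and blood markers (4) 83.4 to 521 and 61.9 to 409. Each marker was above 0 in at least 1 library, while the fibre marker Pvalb, the liver marker Cps1 and a row of the macrophage marker Itgam were listed at 0 in all 3 MyoCre libraries. In bulk muscle, fewer cells of a type and less RNA per cell cannot be told apart.

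The members differed widely in level. Rplp1, an acidic protein of the stalk that recruits elongation factors, had the highest mean over the 6 libraries (801 FPKM), followed by the small-subunit protein Rps15 (517 FPKM). The lowest members were Rps23 (1.76 FPKM), Rpl36a (1.98) and Rpl27 (2.07), and the rows just below the minimum were Rps13 (0.747), Rpl12 (0.624) and Rpl17 (0.608). The other 7 rows under 1 FPKM were Rps12, Rps27, Rpl39l, Rpl23a, Rpl10a, Rpl24 and Rps6, the last at 0.130 FPKM. Parts of the same complex were thus listed at levels from 0.130 to 801 FPKM. Rpl13 and Rpl10l were not analysed here.

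Many of the low rows had abundant near-identical copies. A copy was taken as near-identical when its transcript matched at least 80% of the member's coding sequence at 95% identity or more. Of the 75 standard subunits with a row, 64 had such a copy with a row at 1 FPKM or more, and for 39 the highest copy exceeded the gene itself. Rps6 at 0.130 FPKM stood against Rps6-ps4 at 156 FPKM. Rps27 at 0.583 FPKM stood against Rps27rt, an annotated coding copy identical over all 252 coding bases, at 386 FPKM. Rps29 at 3.71 FPKM stood against the processed pseudogene Gm14303, identical over 168 bases, at 1094 FPKM. Rpl24 (0.143 FPKM) had Gm9385 at 241, Rpl23 (29.7 FPKM) had Gm9794 at 424, and Rps20 (31.7 FPKM) had Gm4332 at 573. Rows that share sequence in this way share reads, no source used here says how the authors' counting divided them, and the value of any single such row is uncertain. At the other end, 17 standard subunits held at least 90% of the sum of the row and its copies.

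To set the rows that share reads together, each row was added to its near-identical copies, which is called the family sum below. This was chosen after the data had been seen. Each FPKM in the sum is scaled by the length of its own row, so the sum still depends in part on how reads were divided. All 9 standard subunits listed under 1 FPKM had a family sum above it, and 82 of 83 families reached 1 FPKM, Rpl39l being the exception. The family sum of Rps6 was 142, 139 and 136 FPKM in MyoCre, against 203, 170 and 148 in K15SKO. That of Rpl12 was 227, 219 and 216 FPKM in MyoCre and 434, 334 and 297 in K15SKO. That of Rps13 was 30.8, 33.7 and 28.4 FPKM in MyoCre and 52.8, 47.1 and 40.5 in K15SKO. For these 3 proteins of the core ribosome, which the rows as deposited would show as barely expressed, every K15SKO library lay above every MyoCre library. The same held for 13.1% of all genes tested with family sums. Among the 9, only the family sum of Rps12 overlapped, at 9.12, 11.5 and 8.54 FPKM in MyoCre and 28.7, 8.27 and 9.49 in K15SKO.

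**Figure D1:**
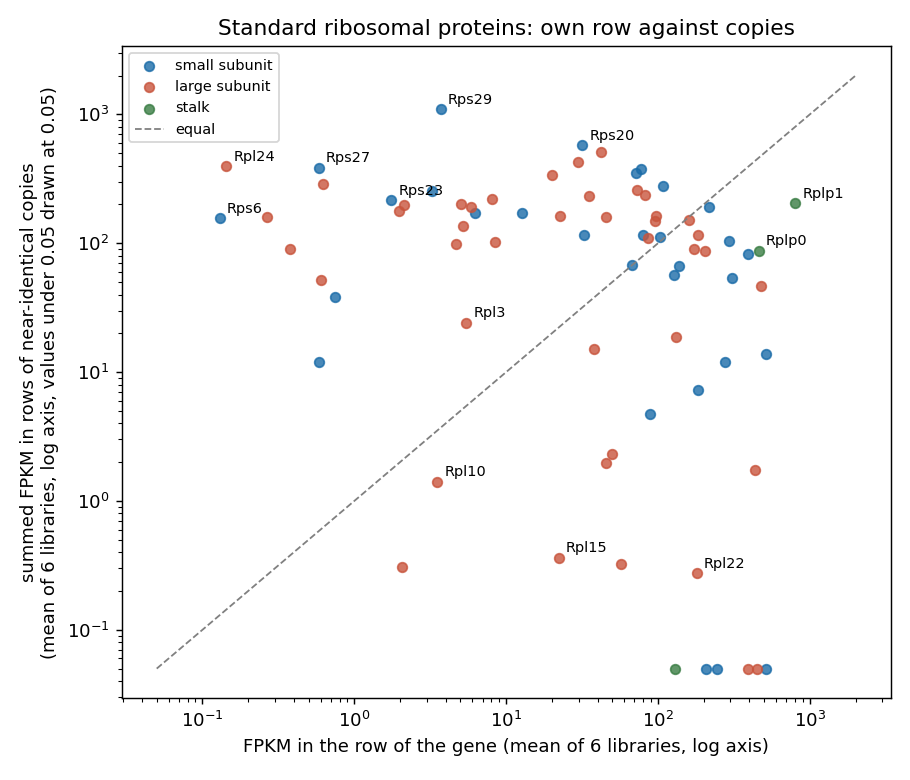
Mean FPKM over the 6 libraries in the row of each of the 75 standard subunits (x axis, log scale) against the summed mean FPKM of the rows of its near-identical copies (y axis, log scale, values under 0.05 drawn at 0.05), coloured by subunit. Points above the dashed line of equality are genes whose copies together held more than the gene, such as Rps6 at 0.130 FPKM, and the points along the lower edge have no near-identical copy or copies summing to under 0.05 FPKM.

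The comparison of K15SKO with MyoCre asked whether ribosomal protein mRNA differed where Klf15 was targeted. No member passed the threshold of 0.05 on the adjusted p of limma's moderated test, where 6 of 11607 genes (0.0517%) did, and the smallest adjusted p among members was 0.248, for Rpl21. The members nevertheless lay mostly on one side. At an unadjusted limma p under 0.05, 32 of 78 were higher in K15SKO, where 8.43% of all genes tested were, and 0 were lower, where 8.12% were. The log2 difference was positive for 73 of 78, with a median of 0.32 against −0.02 over all genes tested. All 3 K15SKO values lay above all 3 MyoCre values for 41 members (13.4% of all genes tested) and below them for 0 (11.3%). With the family sums, 50 of 82 were higher at an unadjusted p under 0.05 (8.14% of the table so summed), 0 lower (8.17%), 58 did not overlap (13.1%) and the median was 0.39. The adjusted p again passed for 0 of the 82, with 0.247 the smallest, and for 0.0522% of all genes.

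The K15SKO libraries did not agree on the size of the difference. The median member was 0.56, 0.30 and 0.13 above the MyoCre mean on the log2(FPKM + 1) scale in K15SKO 1, 2 and 3, while the MyoCre libraries stood at 0.01, 0.02 and −0.04. K15SKO 1 exceeded every MyoCre library for 74 of 78 members, K15SKO 2 for 62 and K15SKO 3 for 49. Summed FPKM of the members was 9693, 9782 and 9422 in MyoCre, against 14072, 11243 and 10815 in K15SKO. The 3 sums of K15SKO thus lay above those of MyoCre. Their order followed that of the summed macrophage, regeneration, fibroblast and proliferation markers given above. In these 4 sums K15SKO 3 was at or close to the MyoCre level. The fibre, liver, adipocyte, endothelial and blood sums did not follow the order. Of the 6 fibroblast markers, 4 had a positive difference. The fibroblast marker Dcn was lower, at 131 to 149 FPKM in MyoCre and 89.6, 97.7 and 121 in K15SKO. Of the 9 proliferation markers, 4 reached the minimum. Among these, 3 had a positive difference, 1 lay wholly above MyoCre (13.4% of all genes tested) and 1 wholly below (11.3%). The part of all these markers in the result was not tested.

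The calls depended on which libraries entered the fit. Without K15SKO 3, 34 members passed the adjusted p, 33 higher and 1 lower, where 23.6% of all genes passed (10.8% higher, 12.8% lower). On the family sums without K15SKO 3, 47 of 82 passed, beside 23.6% of all genes (10.6% higher, 12.9% lower). With libraries weighted by limma's array weights, which gave K15SKO 3 a weight of 0.2, 27 members passed, all higher, where 20.7% of genes did (10.7% higher, 9.94% lower). With any other library left out, 0 members passed. The number higher at an unadjusted p under 0.05 was then 11 without MyoCre 1 (3.72% of all genes), 13 without MyoCre 2 (3.68%), 15 without MyoCre 3 (5.38%), 14 without K15SKO 1 (4.36%) and 15 without K15SKO 2 (6.16%), against 51 without K15SKO 3 (17.8%). The median log2 difference stayed between 0.23 and 0.43 over these 6 fits.

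**Figure D2:**
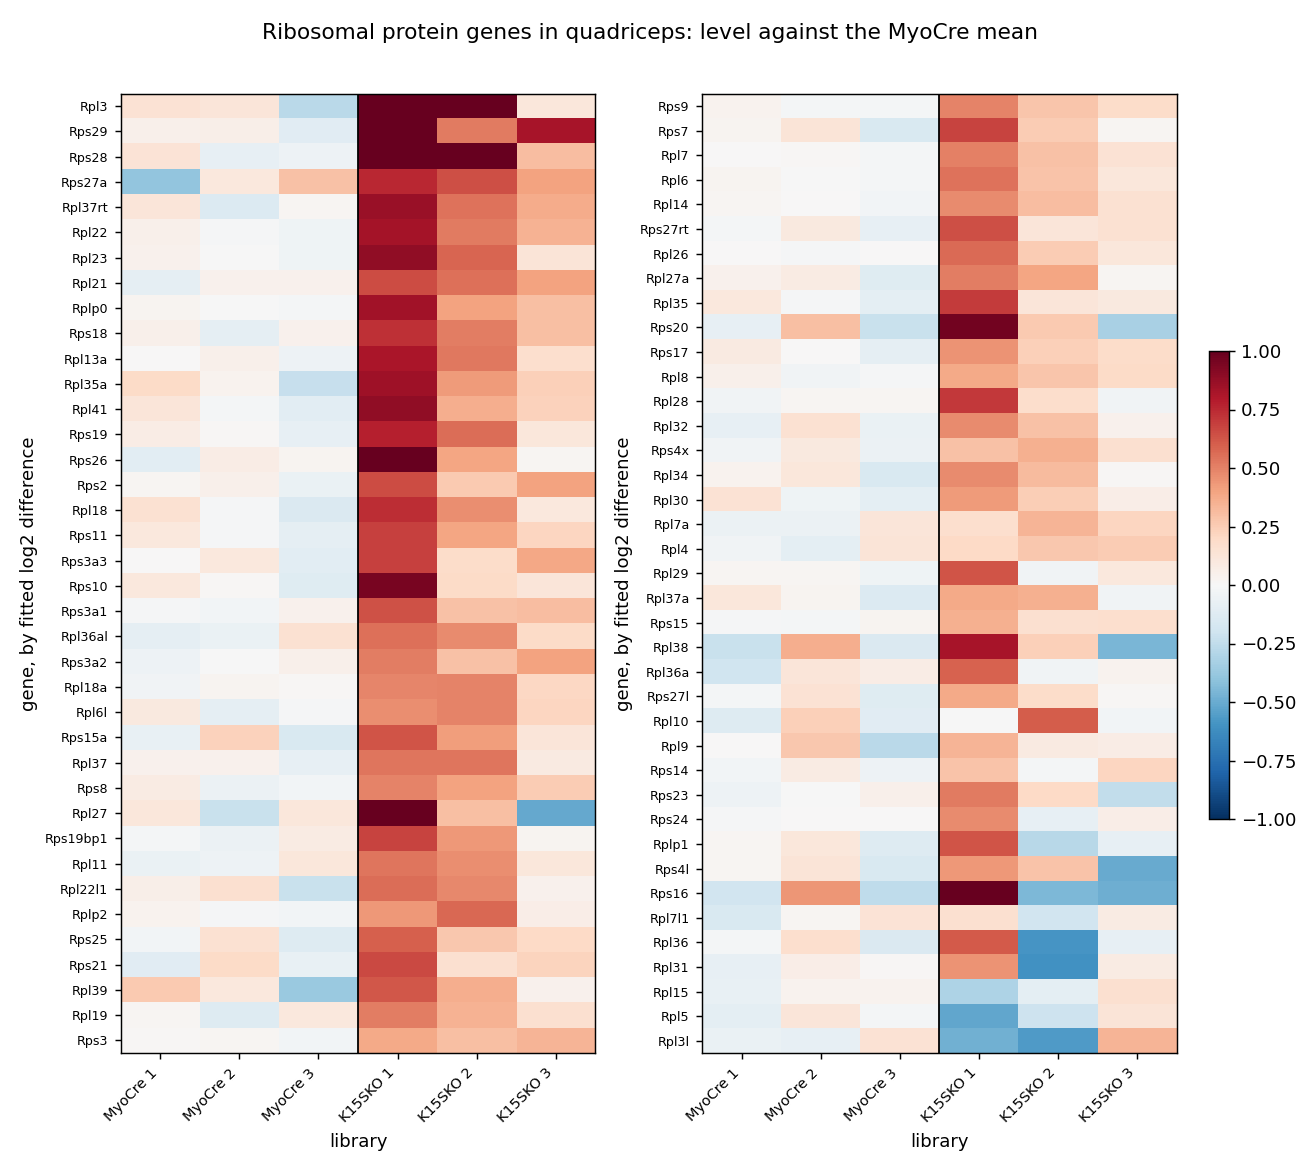
Colour gives log2(FPKM + 1) minus the MyoCre mean for the members, 1 of the 78 not being drawn (vertical axis, ordered by fitted difference from Rpl3 at the top left to Rpl3l at the bottom right) in the 6 libraries (horizontal axis), with red above and blue below the mean and the scale ending at −1 and 1. K15SKO 1 is red for most members, K15SKO 2 is intermediate and K15SKO 3 palest, with medians of 0.56, 0.30 and 0.13.

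**Figure D3:**
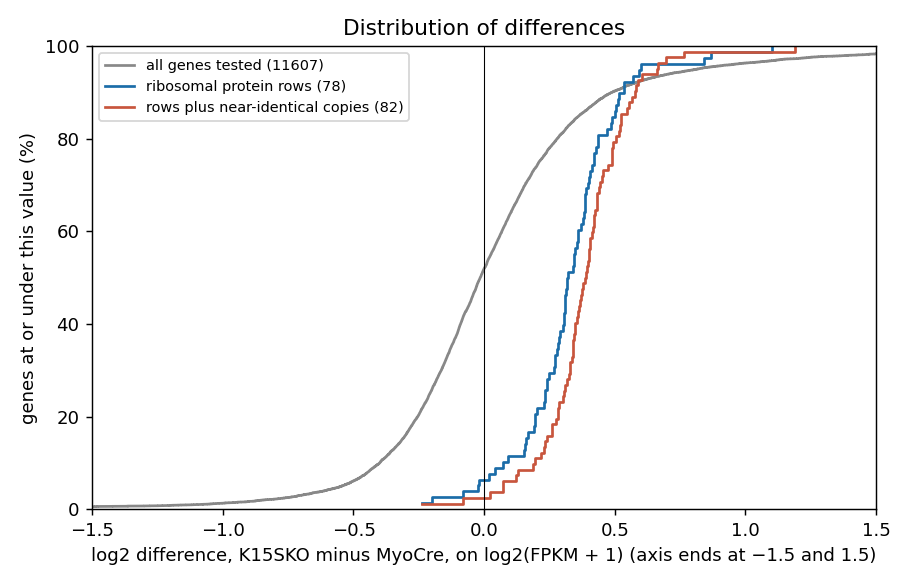
Percentage of genes (vertical axis) at or under each log2 difference, K15SKO minus MyoCre (horizontal axis, ending at −1.5 and 1.5), for all 11607 genes tested, the 78 member rows and the 82 family sums. The curves of the members lie to the right of that of all genes, with medians of 0.32 and 0.39 against −0.02.

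Among the 26 small-subunit proteins, all had a positive difference and the median log2 difference was 0.35. At an unadjusted p under 0.05, 12 were higher (46.2%, beside 8.43% of all genes tested). Rps28, a small protein of that subunit, was listed at 58.7, 50.3 and 51.6 FPKM in MyoCre, against 124, 109 and 66.4 in K15SKO (log2 difference 0.84 ± 0.24 SE, limma adjusted p 0.272). Its family sum gave the same order, at 346, 325 and 339 FPKM in MyoCre and 782, 584 and 355 in K15SKO. Rps27a, made as a fusion with ubiquitin, was at 3.33, 5.14 and 5.96 FPKM in MyoCre and 8.61, 7.92 and 6.53 in K15SKO (log2 difference 0.60 ± 0.20, limma adjusted p 0.276). Its family sum was 122, 132 and 132 FPKM in MyoCre and 289, 219 and 166 in K15SKO. In both genes all K15SKO libraries lay above all MyoCre libraries and K15SKO 3 was the lowest of the 3. Rps19, a protein whose gene is mutated in Diamond-Blackfan anaemia, was at 68.9, 66.2 and 61.7 FPKM in MyoCre and 113, 96.95 and 71.0 in K15SKO (log2 difference 0.48 ± 0.18, limma adjusted p 0.288). With its copies, of which Rps19-ps6 was more abundant than the gene, the sum was 167, 166 and 148 FPKM in MyoCre and 274, 236 and 182 in K15SKO.

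Other small-subunit rows showed how far the copies matter. Rps29 was at 2.41, 2.43 and 2.04 FPKM in MyoCre and 6.87, 3.72 and 4.82 in K15SKO, the second largest difference of all members (0.87 ± 0.20, limma adjusted p 0.251). Its copy Gm14303 held nearly the whole family and was at 1021, 958 and 975 FPKM in MyoCre and 1558, 1105 and 949 in K15SKO, with K15SKO 3 the lowest of all 6 libraries. The log2 difference of the family sum was 0.26, smaller than that of the row. Rps23, in the decoding centre of the ribosome, differed the other way. Its row gave a log2 difference of 0.16, whereas its family sum was 174, 171 and 177 FPKM in MyoCre and 310, 254 and 214 in K15SKO, a log2 difference of 0.56. The abundant row Rps15 (473, 469 and 486 FPKM in MyoCre, 610, 531 and 534 in K15SKO) depended little on copies. Its groups did not overlap, with a log2 difference of 0.23 ± 0.12 and an unadjusted limma p of 0.0973. Rps4x, encoded on the X chromosome, was at 121, 133 and 119 FPKM in MyoCre and 152, 159 and 139 in K15SKO (log2 difference 0.27 ± 0.11, unadjusted limma p 0.0523).

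Of the 37 large-subunit proteins, 33 had a positive difference and the median was 0.31. At an unadjusted p under 0.05, 14 were higher (37.8%, beside 8.43% of all genes tested). Rpl22, an RNA-binding protein for which ribosomes can take the paralog Rpl22l1 instead, was at 149, 143 and 139 FPKM in MyoCre and 257, 206 and 183 in K15SKO (log2 difference 0.57 ± 0.15, limma adjusted p 0.269). Rpl13a, also known for silencing of inflammatory mRNAs outside the ribosome, was at 166, 173 and 160 FPKM in MyoCre and 293, 240 and 187 in K15SKO (log2 difference 0.50 ± 0.18, limma adjusted p 0.281). In both, the 2 groups did not overlap and K15SKO 1 was the highest library. Rpl7 was at 155, 156 and 153 FPKM in MyoCre and 219, 190 and 171 in K15SKO (log2 difference 0.32 ± 0.13, limma adjusted p 0.298). Rpl39, next to the exit of the peptide tunnel, was at 101, 90.7 and 64.9 FPKM in MyoCre and 130, 108 and 87.0 in K15SKO, with overlap between the groups.

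Rpl5 and Rpl11, which bind 5S ribosomal RNA and, outside the ribosome, the p53 regulator Mdm2, were low rows with abundant copies. Rpl5 was at 5.17, 6.18 and 5.50 FPKM in MyoCre and 3.61, 4.71 and 6.24 in K15SKO, a log2 difference of −0.20 ± 0.18. Its family sum had the opposite sign, at 117, 125 and 125 FPKM in MyoCre and 176, 156 and 150 in K15SKO (log2 difference 0.39, unadjusted limma p 0.014). Rpl11 was at 4.01, 4.05 and 4.67 FPKM in MyoCre and 6.60, 6.22 and 4.66 in K15SKO (log2 difference 0.37), and its family sum at 162, 164 and 160 and at 321, 239 and 195 (log2 difference 0.61). On the family sums both genes of the 5S particle were higher in every K15SKO library than in any MyoCre library. Rpl31 also had opposite signs, −0.02 in the row and 0.49 in the family sum, which was 84.0, 83.2 and 90.6 FPKM in MyoCre and 147, 114 and 106 in K15SKO. Rpl38, known for its part in translating Hox mRNAs in the mouse embryo, was at 4.24, 6.87 and 4.53 FPKM in MyoCre and 9.83, 6.20 and 3.45 in K15SKO, which overlap. Its family sum was 152, 181 and 156 FPKM in MyoCre and 286, 198 and 211 in K15SKO, which do not.

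A few large-subunit genes did not share the direction, or had a difference near 0. Rpl15 was at 21.6, 23.4 and 23.3 FPKM in MyoCre and 18.2, 21.2 and 25.6 in K15SKO (log2 difference −0.08 ± 0.14), and since its copies were almost silent its family sum gave the same value of −0.08. Rpl36 was at 153, 174 and 140 FPKM in MyoCre and 238, 103 and 147 in K15SKO (−0.02 ± 0.30), with K15SKO libraries on both sides of MyoCre, and the family sum gave 0.07. Rpl10, an X-linked protein of the peptidyl transferase region, was at 2.82, 3.90 and 2.86 FPKM in MyoCre and 3.15, 5.34 and 3.09 in K15SKO (0.19 ± 0.21). Its family sum stayed low too, at 3.62 to 4.99 FPKM in MyoCre and 4.75 to 6.96 in K15SKO. Rpl27, among the lowest rows, ranged from 0.716 to 5.29 FPKM within K15SKO.

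The 3 stalk proteins form the arm of the large subunit that binds elongation factors. Rplp0, its base, was at 383, 375 and 372 FPKM in MyoCre and 676, 499 and 464 in K15SKO (log2 difference 0.52 ± 0.17, limma adjusted p 0.274), with no overlap. Rplp2 was at 116, 112 and 111 FPKM in MyoCre and 154, 170 and 119 in K15SKO (0.36 ± 0.15, limma adjusted p 0.309), again with no overlap. Rplp1 was at 770, 820 and 694 FPKM in MyoCre and 1178, 626 and 717 in K15SKO (0.09 ± 0.25). The most abundant member thus showed overlapping groups, with K15SKO 2 the lowest of all 6 libraries.

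Rpl3l and Rpl3 differed from MyoCre in opposite directions in 2 of the 3 K15SKO libraries. Rpl3l was at 416, 412 and 481 FPKM in MyoCre and 311, 293 and 553 in K15SKO (log2 difference −0.24 ± 0.26, limma adjusted p 0.606), the most negative value among members. Rpl3 was at 3.22, 3.15 and 2.15 FPKM in MyoCre and 11.9, 9.27 and 3.11 in K15SKO (1.10 ± 0.42, limma adjusted p 0.288), the most positive value. Its mean in K15SKO was 2.85 times that in MyoCre. The pseudogene row Rpl3-ps1, identical to Rpl3 but for 2 bases as shown above, was at 14.1, 15.1 and 10.3 FPKM in MyoCre and 50.5, 40.9 and 13.4 in K15SKO, the same pattern at a higher level. The family sum of Rpl3 was 17.4, 18.3 and 12.5 FPKM in MyoCre and 62.5, 50.2 and 16.5 in K15SKO (1.19 ± 0.48, limma adjusted p 0.300). K15SKO 3 therefore lay within the MyoCre range for Rpl3 and above it for Rpl3l, on the other side from K15SKO 1 and 2.

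The muscle paralog remained the more abundant of the pair in every library. The ratio of Rpl3l to the Rpl3 row was 130, 131 and 224 in MyoCre and 26.2, 31.7 and 178 in K15SKO. Against the family sum of Rpl3, the ratio was 23.98, 22.6 and 38.4 in MyoCre and 4.98, 5.84 and 33.5 in K15SKO. K15SKO 1 and 2 stood apart from the other 4 libraries on both scales. The mean log2 ratio to the row differed by −1.56 between groups (two-sided exact permutation p 0.3, with 0.1 the smallest that 3 against 3 libraries can give), and that to the family sum by −1.47 (exact permutation p 0.3). Without K15SKO 3, Rpl3 passed the limma threshold higher (log2 difference 1.60, adjusted p 0.00931) and Rpl3l passed it lower (−0.53, adjusted p 0.0245), the only member to do so. The sum of the markers of regenerating muscle, at 88.4, 72.2 and 21.6 FPKM in K15SKO 1 to 3, was at most 24.5 in MyoCre. This sum divided the libraries in the same way, as did that of the macrophage markers. Taken singly, 6 of the 8 regeneration markers were above every MyoCre library in K15SKO 3 too. The part of both sets of markers in the result was not tested.

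**Figure D4:**
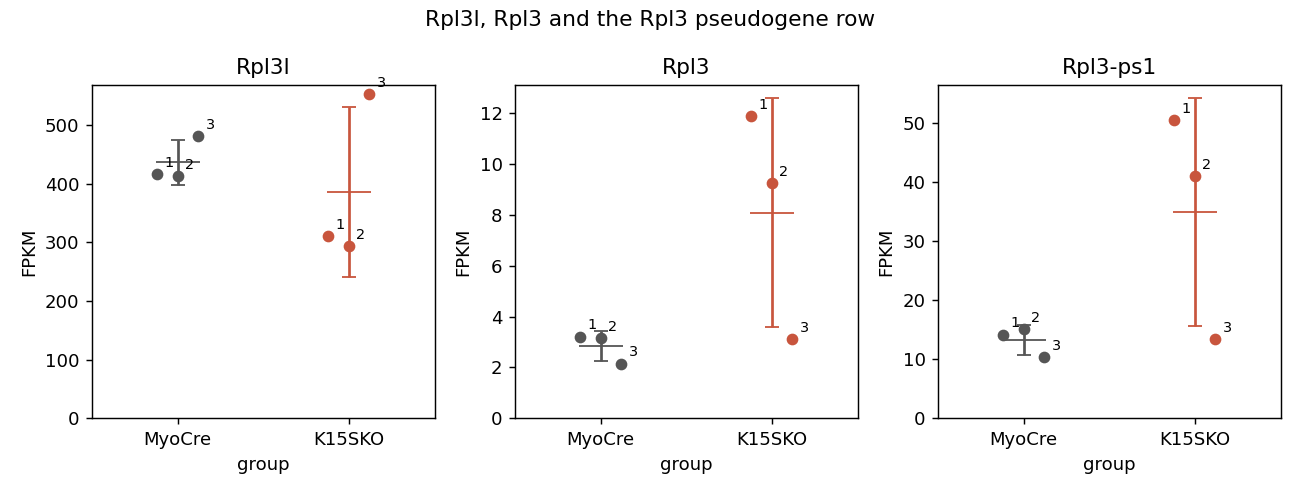
FPKM of Rpl3l, Rpl3 and the pseudogene Rpl3-ps1 (vertical axes from 0, each with its own scale) in MyoCre and K15SKO, with 1 numbered point per library and the mean and SD of 3 libraries as bars. K15SKO 1 and 2 are low for Rpl3l and high for the other two, and K15SKO 3 lies at 553 FPKM for Rpl3l and 3.11 FPKM for Rpl3.

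Of the 11 members that are paralogs or copies, 10 had a positive difference and the median was 0.36. At an unadjusted p under 0.05, 5 were higher (45.5%, beside 8.43% of all genes tested). These were the paralog Rpl36al and 4 near-identical copies of standard subunits, Rpl37rt, Rpl6l, Rps3a2 and Rps3a3. Such copies, and Rps27rt, share reads with their parent genes. Their rows and those of the parents are therefore not independent in the counts over the 78 members. Rpl22l1, the paralog of Rpl22, was at 60.02, 64.3 and 49.2 FPKM in MyoCre and 85.1, 80.7 and 59.2 in K15SKO (log2 difference 0.36 ± 0.18, limma adjusted p 0.341). Both genes of that pair were thus higher in K15SKO 1 and 2, unlike Rpl3 and Rpl3l. Rps27l, a paralog of Rps27 induced by p53, was at 179, 200 and 167 FPKM in MyoCre and 237, 207 and 183 in K15SKO (0.19 ± 0.14), with overlap. Rps27 itself could be read only through its family, nearly all of it Rps27rt, at 338, 366 and 324 FPKM in MyoCre and 536, 373 and 381 in K15SKO (log2 difference 0.31). Rpl36al, a close relative of Rpl36a, was at 122, 125 and 146 FPKM in MyoCre and 192, 182 and 149 in K15SKO (0.41 ± 0.14, limma adjusted p 0.281). Rpl36a was at 1.39, 1.98 and 1.89 and at 3.12, 1.67 and 1.81 FPKM, but its family sum was 150, 158 and 156 and then 230, 197 and 190 (log2 difference 0.40). Rpl7l1, a relative of Rpl7, was at 13.3, 15.2 and 16.5 FPKM in MyoCre and 16.8, 13.0 and 15.9 in K15SKO (0.02 ± 0.14), and Rps4l at 2.66, 2.94 and 2.25 and 3.87, 3.40 and 1.55 (0.07 ± 0.26). Rpl37rt, which is annotated as a pseudogene and counted within the family of Rpl37, was at 293, 244.6 and 273 FPKM in MyoCre and 491, 394 and 349 in K15SKO (0.59 ± 0.16, limma adjusted p 0.272). Rpl39l, the paralog of Rpl39 known from testis, stayed under the minimum with a mean of 0.387 FPKM.

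For 7 members (Rps3, Rpl3l, Rpl8 and Rplp2 among them) no annotated copy met the limits used, though more distant copies may still share reads. Of these, 2 were higher at an unadjusted p under 0.05 (8.43% of all genes tested), 4 had groups that did not overlap (13.4%), and the median log2 difference was 0.29. Against the mean of the MyoCre libraries, their medians stood higher by 0.38 in K15SKO 1, 0.28 in K15SKO 2 and 0.14 in K15SKO 3. The pseudogene rows themselves, named with -ps and outside the rule, had a median of 0.41. Of 48 tested, 29 were higher (60.4%, beside 8.43% of all genes tested) and 0 lower (8.12%).

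Other genes of ribosomes and translation were set beside the subunits. The 4 ribosomal genes that the rule on symbols misses had a median log2 difference of 0.30. At an unadjusted p under 0.05, 1 of the 4 was higher, beside 8.43% of all genes tested. That was Rpsa, also known as the laminin receptor, at 58.9, 66.4 and 62.4 FPKM in MyoCre and 126, 94.0 and 69.1 in K15SKO. Of 16 genes for elongation factors and other mRNAs with an oligopyrimidine tract, 3 were higher (18.8%, beside 8.43% of all genes tested) and 0 lower (8.12%). Their median was 0.05, and these small counts are not read as a result. Eef1b2, which reloads the elongation factor with GTP, was at 114, 119 and 120 FPKM in MyoCre and 194, 156 and 153 in K15SKO. Eef1a1, chosen after its values were seen, is the general form of the elongation factor that mature muscle replaces by Eef1a2. It was at 107, 134 and 92.3 FPKM in MyoCre and 274, 347 and 102 in K15SKO, while Eef1a2 was at 923, 883 and 1071 and at 723, 743 and 955. K15SKO 1 and 2 were thus high for the general form and low for the muscle form, as they were for Rpl3 and Rpl3l, although neither elongation factor gene passed an unadjusted p of 0.05 (0.0775 and 0.161).

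Of 49 tested genes for ribosome biogenesis, 6 were higher and 2 lower at an unadjusted p under 0.05, shares of 12.2% and 4.08% beside 8.43% and 8.12% of all genes tested, so these counts are not read as a result. The median log2 difference was 0.03. The 2 lower were Rrs1, needed to bring the 5S particle into the large subunit (11.9, 10.8 and 14.6 FPKM in MyoCre, 6.07, 8.42 and 5.70 in K15SKO), and Rrn3, the initiation factor of RNA polymerase I (18.5, 18.7 and 20.0, then 13.8, 14.5 and 16.0). In both, all K15SKO libraries, K15SKO 3 included, lay below all MyoCre libraries. This held for 5 of the 49 genes (beside 11.3% of all genes tested), and 8 lay wholly above (beside 13.4%). Neither count is read as a result. Polr1d, a subunit shared by RNA polymerases I and III, was at 61.5, 56.6 and 57.6 FPKM in MyoCre and 89.97, 85.2 and 65.9 in K15SKO. Of 24 regulators of ribosomal protein synthesis, 0 were higher and 6 lower (25%, beside 8.12% of all genes tested), with a median of −0.16. Among them were Larp1, which binds oligopyrimidine mRNAs (34.4, 31.3 and 40.8 FPKM in MyoCre, 23.3, 27.4 and 29.9 in K15SKO), Rps6kb1, the S6 kinase (9.62, 12 and 10.6, then 7.38, 8.10 and 9.27), and Flcn, which acts on mTOR at the lysosome (30.8, 33.5 and 38.2, then 18.2, 20.8 and 27.98). Of 80 mitochondrial ribosomal proteins, 16 were higher (20%, beside 8.43%) and 0 lower, with a median of 0.16. No gene of these lists passed the adjusted limma p.

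**Figure D5:**
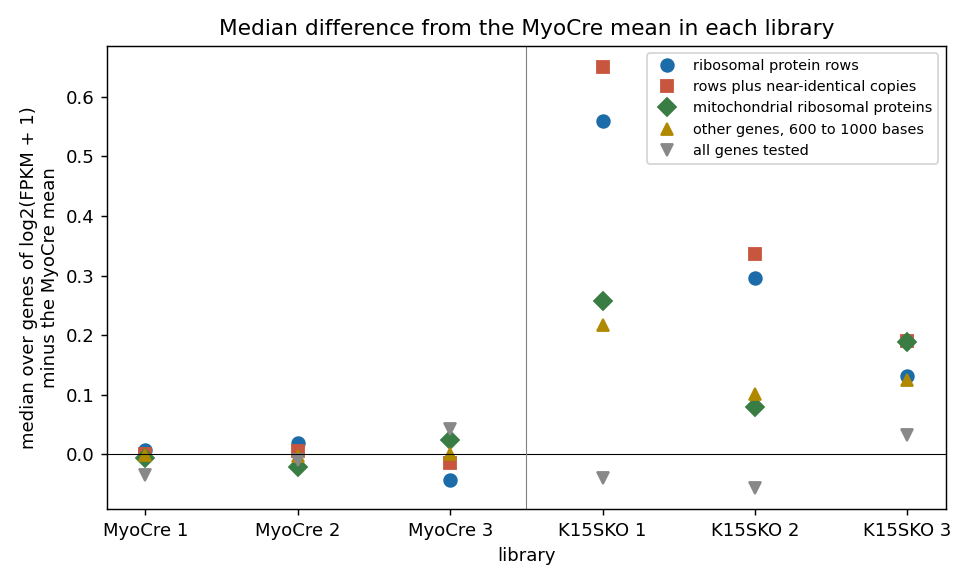
Median over genes of log2(FPKM + 1) minus the MyoCre mean (vertical axis) in each library (horizontal axis) for the member rows, the family sums, mitochondrial ribosomal proteins, other genes with a longest transcript of 600 to 1000 bases, and all genes tested. The members lie at 0.56 and 0.30 in K15SKO 1 and 2, above the mitochondrial ribosomal proteins, the other short genes and all genes tested, and at 0.13 in K15SKO 3, where mitochondrial ribosomal proteins lie at 0.19.

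Ribosomal protein mRNAs are short, with a median longest annotated transcript of 1031.5 bases for the members, and the median difference of other short genes was also above 0. Over genes that are not members, the median log2 difference was 0.14 up to 600 bases, 0.14 from there to 1000 bases, 0.10 to 2000 bases, −0.01 to 4000 bases and −0.11 beyond. In the class ending at 1000 bases, 17.5% of 555 genes were higher at an unadjusted p under 0.05, and its library medians were 0.22, 0.10 and 0.12 in K15SKO 1 to 3. In the class from 1000 to 2000 bases, which holds the members' median length, the library medians were 0.12, 0.06 and 0.06. The members' medians of 0.56, 0.30 and 0.13 were above both classes, by the least in K15SKO 3. The part of transcript length in the result was not tested.

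The start sites of part of the members carry the pyrimidine run for which these genes are known. In the RefSeq promoter table (GRCm38.p6), 48 of the 66 standard members were found, with 57 promoters. A C at the annotated start followed by 4 bases each C or T, read on the strand of the gene, was present in 11 of 57 (19.3%), against 2.51% of all 32851 promoters. Beginning within 5 bases of the start, the pattern was present in 26 of 57 (45.6%) against 18.3%. The windows below are 30 bases long, with the annotated start as the eleventh base. They show 4 genes with the run (2 of them, Rps6 and Rps27, under the minimum in their own rows). In the other 2, Rplp0 and Rpl3l, no run begins within 5 bases of the start. Capitals mark the run of C and T that begins within 5 bases of the start.
Rps6 (chr4:86857348-86857377, minus strand): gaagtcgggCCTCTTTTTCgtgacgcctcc
Rplp2 (chr7:141447641-141447670, plus strand): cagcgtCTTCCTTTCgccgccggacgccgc
Rps27 (chr3:90213629-90213658, minus strand): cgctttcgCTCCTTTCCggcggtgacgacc
Rps27rt (chr9:114982720-114982749, minus strand): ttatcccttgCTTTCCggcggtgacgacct
Rplp0 (chr5:115559457-115559486, plus strand): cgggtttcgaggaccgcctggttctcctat
Rpl3l (chr17:24727816-24727845, plus strand): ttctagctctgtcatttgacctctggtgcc
The run was thus missing within 5 bases of the start of a standard subunit as well as of the muscle paralog. Both windows hold the pattern further downstream. The window of Rps27rt repeats that of Rps27 from within the run onward. A match in this window is a description of the letters and depends on where RefSeq places the start.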

How the data were processed

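RNA of mouse quadriceps was sequenced in 3 MyoCre and 3 K15SKO libraries. The authors deposited a matrix of FPKM for 23314 genes; the unit is read from the tools and the values. STAR, Cufflinks, Cuffdiff and the mm10 build are named, per the submitters' processing notes; no source used here gives their versions, the annotation or the strandedness. FPKM keeps no counts, so the depth is unknown and counting error cannot be given.

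The test was limma 3.58.1 under R 4.3.3 (eBayes with trend, two-sided) applied to log2(FPKM + 1) for the 11607 genes whose mean reached 1 FPKM, with Benjamini-Hochberg adjustment over all of them and calls at 0.05. Adding 1 makes differences of low genes appear smaller. Values after ± are SE. Near-identical copies were found with BLAST 2.17.0, on the plus strand, between the complete coding sequence of the APPRIS principal transcript of each of 83 member symbols and GENCODE M21 transcripts (GRCm38): at least 95% identity over 80% of the coding sequence and 30% of the copy's transcript, outside the member's locus. Such a copy, and an overlapping or antisense gene, may take reads of the member. Exact permutation tests were computed in Python 3.11.15 with numpy 2.4.6. The procedure was tested on simulated data.

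The members, gene lists and named genes (paralog pairs, stalk, members with a known separate role, the extremes by level and by difference, those nearest the minimum, and up to 4 genes per list) were chosen with earlier results of these data known. Alternatives were other pseudocounts, filters and scalings, array weights, the replicate block and each library left out. Family sums, and the members without copies, were added after seeing the data. The values of 1 member are not reported here; it stays in the counts and medians.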

Additional observations from a re-analysis of the deposited data

How the results depend on the processing

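Of the 78 members, 0 passed the adjusted limma p in all fits on the rows as deposited but 2, which were array weights (27 members, with 2398 of all genes, 49 members higher and 1 lower at an unadjusted p under 0.05, beside 20.3% and 21.0% of all genes) and the fit without K15SKO 3. With each library left out in turn, 0 to 34 members and 3 to 2743 genes passed, 11 to 51 members were higher and 0 to 2 lower at an unadjusted p under 0.05, beside 3.68% to 17.8% and 3.61% to 23.4% of all genes. Quantile normalization gave 16 higher (6.70% of all genes), and without a filter 3 genes passed. On the family sums 50 were higher, beside 8.14% of all genes. On the family sums without K15SKO 3, 2714 genes and 47 families passed and the median was 0.48. At an unadjusted p under 0.05, 67 families were higher and 1 lower, beside 17.6% and 23.6% of all genes. In that fit Rpl5 (0.43) and Rpl31 (0.59) had positive values in place of the negative ones of their rows. Among members with no near-identical copy (7), 2 were higher and 4 did not overlap. The cause of these differences was not tested. The median log2 difference on the rows stayed within 0.23 to 0.43 under the other pseudocounts, filters, scalings, eBayes settings, array weights, the block and each library left out.

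Deviations of libraries with the same replicate number correlated at 0.0024, 0.085 and 0.094, so the numbers were not taken as a pairing. With the replicate block, 3 genes and 0 members passed, and the difference in the log2 ratio of Rpl3l to Rpl3 was −1.56 with an exact permutation p of 0.25, the smallest a block of 3 can give. Of the named members, 15 passed without K15SKO 3 and 12 with array weights. The depth is unknown and limits the rows of a few FPKM most.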
